A study of Mus musculus with 7 samples.

Results

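Genes of bone morphogenetic protein (BMP) signalling were read in whole E11.5 mouse embryos with and without SLMAP3. The 10 genes were the ligands Bmp2, Bmp4, Bmp5 and Bmp7, the secreted antagonists Nog, Chrd and Grem1, and the targets Id1, Id2 and Id3. They were found by gene symbol, 10 of 25461 genes with a value, and all 10 were among the 16095 genes averaging 1 FPKM or more that were compared between genotypes. FPKM count fragments relative to transcript length and library depth, so that levels can be set side by side between genes.

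BMP ligands are secreted proteins of the TGF-beta superfamily that bind paired type I and type II serine/threonine kinase receptors, which phosphorylate Smad1, Smad5 and Smad9. These Smads enter the nucleus with Smad4, and the Id genes are among their most direct targets. Id proteins lack a DNA-binding domain and hold E proteins and other helix-loop-helix factors away from DNA. In the embryo, BMP signals come from the roof plate and the overlying ectoderm and pattern the dorsal neural tube, and they shape the limb, heart and somites, where Noggin, Chordin and Gremlin bind the ligands outside the cell.

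The embryos were of the B6C3F1 strain, 3 homozygous SLMAP3 knockouts (KO: KOAC8-6, KOAC10-5 and KOAC10-8) and 4 wildtypes (WT: KOAC8-1, KOAC10-7, KOAC9-1 and KOAC10-2), bred by crossing heterozygotes. The deletion was made with a LoxP-flanked exon of Slmap and CMV-cre, after which the allele was kept without Cre. It removes the SLMAP3 isoform and leaves SLMAP1 and SLMAP2, so the control embryos carry all isoforms and the KO embryos the shorter ones. Tails were taken for genotyping, the rest of each embryo gave 1 library, and no embryos were pooled. What the KOAC numbers stand for is not given in the sources used here. In whole embryos, fewer cells of a type and less RNA per cell cannot be told apart. Relative sequencing depth ran from 0.811 of the average in KOAC10-2 to 1.21 in KOAC9-1, as read from the steps between low FPKM values.

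Slmap (ENSMUSG00000021870, chromosome 14) was at 19.6, 16 and 16.6 FPKM in KO embryos KOAC8-6, KOAC10-5 and KOAC10-8. In WT embryos KOAC8-1, KOAC10-7, KOAC9-1 and KOAC10-2 it was at 31.2, 23.9, 29.1 and 22.8 FPKM, so that the KO embryos were all below the WT embryos. A value covers all isoforms of the gene. The embryos keep this order in all lists of values.

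The embryos were not alike in the tissue they held. Transcripts of the fetal liver were nearly lacking in KO embryo KOAC10-5 and in WT embryos KOAC10-7 and KOAC10-2. Afp, the most abundant of 8 liver markers, was at 255, 5.18 and 308 FPKM in KO embryos and at 376, 1.30, 278 and 2.49 FPKM in WT embryos. The 8 markers summed to 403, 10.1 and 486 FPKM in KO embryos and to 730, 4.78, 556 and 7.47 FPKM in WT embryos, with none at 0. In WT embryo KOAC10-2, the forelimb gene Tbx5 was at 1.81 FPKM, against 7.61 to 8.49 FPKM in the other WT embryos. Log2 changes of the Id genes and Chrd, and counts of genes, are therefore also given without the 3 embryos nearly lacking liver transcripts.

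In WT embryos the Id genes were the most abundant of the 10. Id3 averaged 128.2 ± 4.90 FPKM, Id2 105.2 ± 6.92 FPKM and Id1 78.5 ± 3.40 FPKM (SD, n = 4), and no WT value of one lay within the WT range of another. Bmp4 followed at 29.0 ± 4.08 FPKM and Bmp7 at 11.9 ± 0.563 FPKM (SD, n = 4), again apart in every WT embryo. Chrd at 5.50 ± 0.414 FPKM, Bmp5 at 4.66 ± 0.651 FPKM and Nog at 4.41 ± 0.443 FPKM (SD, n = 4) came next, and the range of Bmp5 overlapped those of both neighbours. Grem1 at 3.29 ± 0.317 FPKM and Bmp2 at 2.92 ± 0.438 FPKM (SD, n = 4) were the lowest and overlapped each other.

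**Figure D1:**
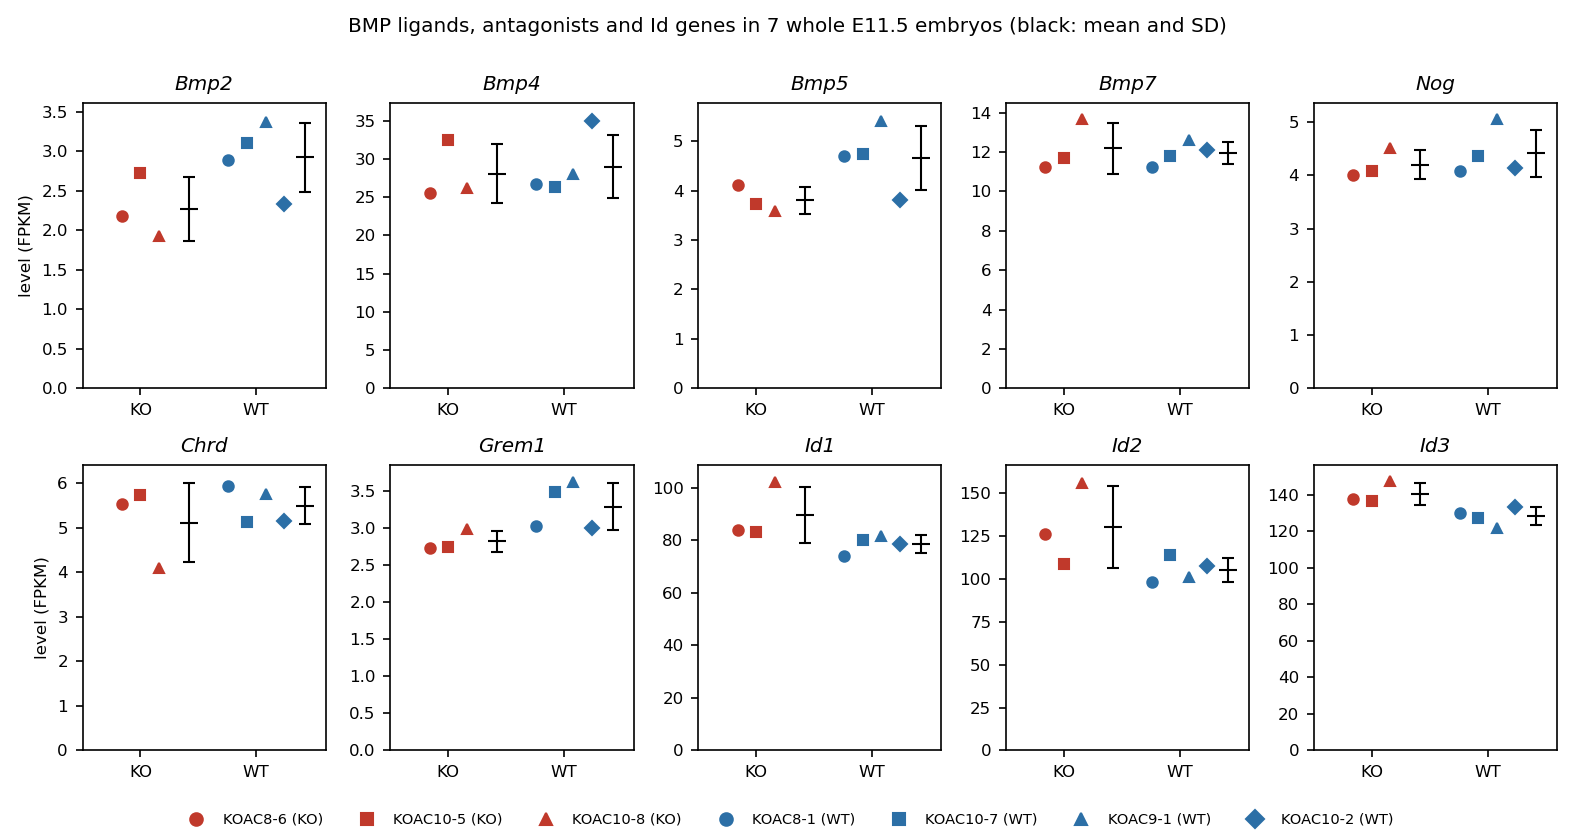
Level in FPKM (vertical axes, from 0) of the 10 genes in each KO embryo (red) and WT embryo (blue), with the mean and SD of each genotype in black. Id1 and Id3 lie higher in all KO embryos than in any WT embryo, Grem1 lies lower in every KO embryo, and the genotypes overlap for the other 7 genes.

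None of the 10 genes had an adjusted p under 0.05 (limma on log2(FPKM + 1), Benjamini-Hochberg adjustment over all 16095 genes), where 0.0373% of all genes tested did. Of the 10, 2 reached an unadjusted p under 0.05, Id2 and Id3, both higher in KO embryos. Of all genes tested, 11.5% reached it, and 5.27% did so with higher values in KO embryos. After rescaling to a common sum of FPKM the 2 were Id1 and Id2, where 9.64% of all genes reached it. None of the 10 did with the KOAC number as a block (8.69% of all genes), or without KOAC8-1 (10.49%), KOAC9-1 (7.85%) or KOAC10-8 (7.80%). The genotypes did not overlap for 3 of the 10, Id1, Id3 and Grem1, where this held for 11.6% of all genes. All 3 Id genes were higher in KO embryos on average and all 3 antagonists were lower, as were 3 of the 4 ligands. The median log2 change (KO minus WT, on the log2(FPKM + 1) scale) over the 10 genes was -0.05, beside 0.01 over all genes tested. Exact permutation tests of the mean FPKM, 1 for each of the 10 genes, run over the 35 ways to split 7 embryos into 3 and 4, cannot give less than 0.0286, and are not adjusted.

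Among the ligands, Bmp2 and Bmp5 averaged lower in KO embryos, while Bmp4 and Bmp7 differed little. Bmp2 (ENSMUSG00000027358, GRCm38 chromosome 2, 133552159 to 133562885), a ligand of heart and cartilage formation, was at 2.18, 2.72 and 1.93 FPKM in KO embryos and at 2.89, 3.10, 3.37 and 2.33 FPKM in WT embryos. The KO embryos KOAC8-6 and KOAC10-8 lay below all WT embryos, and KOAC10-5 lay above WT embryo KOAC10-2. The KO mean of 2.27 ± 0.405 FPKM (SD, n = 3) was 77.8% of the WT mean, a log2 change of -0.26 (standard error, SE, 0.13, adjusted p = 0.478 in limma), and the exact two-sided permutation test gave p = 0.114.

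Bmp5 (ENSMUSG00000032179, chromosome 9, 75775364 to 75900310), a ligand of skeletal and lung development close in sequence to Bmp7, was at 4.11, 3.72 and 3.59 FPKM in KO embryos and at 4.69, 4.73, 5.41 and 3.82 FPKM in WT embryos. All KO embryos were below 3 of the WT embryos, and KOAC10-2 was the WT embryo within the KO range, as it was for Bmp2. The KO mean of 3.81 ± 0.274 FPKM (SD, n = 3) was 81.7% of the WT mean, with a log2 change of -0.23 (SE 0.11, adjusted p = 0.467 in limma) and p = 0.0857 in the exact two-sided permutation test. Bmp5 shares 46.0% of its stretches of 50 bases with other transcripts, among them those of the antisense gene Gm26903, and the library kit does not mark strand, so reads of the pair could be exchanged in counting. Gm26903 was listed at 0.0525 ± 0.0142 FPKM in KO embryos (SD, n = 3) and 0.0584 ± 0.0339 FPKM in WT embryos (SD, n = 4).

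Bmp4 (ENSMUSG00000021835, chromosome 14, 46383520 to 46390669), a ligand of the roof plate, the surface ectoderm and the limb, was at 25.5, 32.5 and 26.2 FPKM in KO embryos and at 26.7, 26.3, 28.0 and 35 FPKM in WT embryos. The 2 highest values were those of KO embryo KOAC10-5 and WT embryo KOAC10-2, both nearly lacking liver transcripts, while KOAC10-7, which also nearly lacks them, was among the lowest. The log2 change was -0.04 (SE 0.12, adjusted p = 0.918 in limma), with an exact two-sided permutation p = 0.657. Bmp7 (ENSMUSG00000008999, chromosome 2, 172868012 to 172940321), a ligand of kidney and eye development, was at 11.2, 11.7 and 13.7 FPKM in KO embryos and at 11.2, 11.8, 12.6 and 12.1 FPKM in WT embryos. KOAC10-8 was the highest of the 7, and the other KO embryos lay near the low end of the WT values. Its log2 change was 0.03 (SE 0.08, adjusted p = 0.924 in limma), with an exact two-sided permutation p = 0.83.

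Among the antagonists, Grem1 was lower in all KO embryos than in any WT embryo, while Nog and Chrd overlapped. Grem1 (ENSMUSG00000074934, chromosome 2, 113746164 to 113758646), which holds back BMP in the limb mesenchyme, was at 2.74, 2.75 and 2.99 FPKM in KO embryos and at 3.03, 3.50, 3.63 and 3.01 FPKM in WT embryos. The gap between the genotypes was narrow, from 2.99 FPKM in KO embryo KOAC10-8 to 3.01 FPKM in WT embryo KOAC10-2. The KO mean of 2.82 ± 0.141 FPKM (SD, n = 3) was 85.8% of the WT mean, with a log2 change of -0.16 (SE 0.08, adjusted p = 0.494 in limma) and an exact two-sided permutation p = 0.114. After quantile normalization the genotypes overlapped for Grem1. Among all genes tested, 5.98% were lower in all KO embryos than in any WT embryo.

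Nog (ENSMUSG00000048616, chromosome 11, 89300638 to 89302332), a single-exon antagonist of notochord, somites and cartilage, was at 4.01, 4.09 and 4.51 FPKM in KO embryos and at 4.09, 4.37, 5.05 and 4.14 FPKM in WT embryos. The genotypes interleaved, with WT embryo KOAC9-1 the highest. The log2 change was -0.05 (SE 0.09, adjusted p = 0.831 in limma), and the exact two-sided permutation test gave p = 0.571. Nog had the lowest count of the 10, with the authors' mean normalized count at 373, for which counting alone gives an SD of 5.18%, beside a spread between embryos of 6.49% in KO and 10.04% in WT.

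Chrd (ENSMUSG00000006958, chromosome 16, 20733127 to 20742384), an antagonist first known from dorsal patterning, was at 5.53, 5.73 and 4.09 FPKM in KO embryos and at 5.95, 5.13, 5.76 and 5.16 FPKM in WT embryos. KOAC10-8 alone lay below the WT embryos, and the other KO embryos lay inside their range. The log2 change was -0.10 (SE 0.11, adjusted p = 0.762 in limma), with an exact two-sided permutation p = 0.514. Without the 3 embryos nearly lacking liver transcripts it was -0.25 (adjusted p = 0.581 in limma), and without KOAC10-8 it was 0.03. Of its stretches of 50 bases, 2.73% are shared with Thpo on the opposite strand, which was listed at 0.623 ± 0.0932 FPKM in KO embryos (SD, n = 3) and 0.428 ± 0.0821 FPKM in WT embryos (SD, n = 4).

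The Id genes had the highest levels of the 10, and each averaged higher in KO embryos, Id1 and Id3 without overlap and Id2 with it. Id1 (ENSMUSG00000042745, chromosome 2, 152736251 to 152737410), a BMP target of endothelium and neural progenitors, was at 83.9, 83.2 and 102 FPKM in KO embryos and at 73.8, 79.9, 81.7 and 78.6 FPKM in WT embryos. Every KO embryo was above every WT embryo, KOAC8-6 and KOAC10-5 by little and KOAC10-8 by more. The KO mean of 89.7 ± 10.68 FPKM (SD, n = 3) was 114% of the WT mean, with a log2 change of 0.18 (SE 0.08, adjusted p = 0.451 in limma). The exact two-sided permutation test gave p = 0.0286, the smallest it can give.

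Id2 (ENSMUSG00000020644, chromosome 12, 25093799 to 25097140), which also acts in blood and limb lineages, was at 126, 109 and 156 FPKM in KO embryos and at 98.1, 114, 101 and 108 FPKM in WT embryos. KO embryo KOAC10-5 lay inside the WT range, below WT embryo KOAC10-7, and the other KO embryos lay above it. The KO mean of 130.1 ± 23.7 FPKM (SD, n = 3) was 124% of the WT mean, a log2 change of 0.29 (SE 0.12, adjusted p = 0.424 in limma). This was the largest of the 10 on this scale with all embryos, but with a pseudocount of 0.1 that of Bmp2 was larger, at -0.35 against 0.29 for Id2. Without KO embryo KOAC10-8, Bmp5 (-0.197), Grem1 (-0.194) and Bmp2 (-0.184) had larger changes than Id2 (0.155). Without WT embryo KOAC10-2, Bmp2 (-0.337) and Bmp5 (-0.305) did (Id2 0.303), and without WT embryo KOAC8-1, Bmp2 did (-0.262 against 0.258). For Id2, the exact two-sided permutation test gave p = 0.0571. Between the embryos with liver transcripts, Id2 was at 126 and 156 FPKM in KO and at 98.1 and 101 FPKM in WT, a log2 change of 0.49 (adjusted p = 0.403 in limma), while among the 3 without them KO embryo KOAC10-5 stood between WT embryos KOAC10-7 and KOAC10-2. With Afp as a covariate over all 7 embryos, the log2 change of Id2 was 0.28 (SE 0.13, adjusted p = 0.459 in limma).

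Id3 (ENSMUSG00000007872, chromosome 4, 136143497 to 136145755), often active in the same cells as Id1, was at 138, 136 and 148 FPKM in KO embryos and at 130.3, 128, 122 and 133 FPKM in WT embryos. All KO embryos were above all WT embryos, and KOAC10-8 was again the highest. The KO mean of 140.5 ± 6.19 FPKM (SD, n = 3) was 110% of the WT mean, with a log2 change of 0.13 (SE 0.05, adjusted p = 0.417 in limma) and an exact two-sided permutation p = 0.0286. Among all genes tested, 5.61% were higher in all KO embryos than in any WT embryo. Id3 was the most deeply read of the 10, with the authors' mean normalized count at 8652, which by counting alone gives an SD of 1.08%, beside a spread between embryos of 4.41% in KO and 3.82% in WT.

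Summed over the 3 genes, Id transcripts were at 347, 328 and 405 FPKM in KO embryos and at 302, 321, 305 and 320 FPKM in WT embryos. The lowest KO sum, in KOAC10-5, was above the highest WT sum, in KOAC10-7, and the KO embryos differed more among themselves (360 ± 40.1 FPKM, SD, n = 3) than the WT embryos did (312 ± 9.82 FPKM, SD, n = 4). The larger KO spread rested on KOAC10-8 at 405 FPKM, with the other KO embryos at 347 and 328 FPKM. The sum of the 4 ligands was 46.3 ± 3.89 FPKM in KO (SD, n = 3) and 48.5 ± 3.61 FPKM in WT embryos (SD, n = 4), and most of it was Bmp4. The sum of the 3 antagonists was 12.1 ± 0.501 FPKM in KO (SD, n = 3) and 13.2 ± 0.891 FPKM in WT embryos (SD, n = 4).

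KO embryo KOAC10-8 stood at the edge for most of the genes. Against the WT mean it was at 0.38 for Id1, 0.56 for Id2 and 0.20 for Id3 on the log2 scale of FPKM, the highest embryo for each, and also the highest for Bmp7, at 0.20. It was the lowest embryo for Bmp2 at -0.60, for Bmp5 at -0.38 and for Chrd at -0.43. This embryo also had the largest sum of FPKM over all genes, 861448 against 770063 to 813357 in the others. With all embryos rescaled to a common sum, it was at 0.26 for Id1, 0.45 for Id2, 0.083 for Id3, 0.077 for Bmp7, -0.72 for Bmp2, -0.49 for Bmp5 and -0.55 for Chrd, and its Id3 was then the lowest of the KO embryos. Without it, the log2 changes were 0.09 for Id1, 0.15 for Id2 and 0.10 for Id3, so those of Id1 and Id2 were smaller by over 1.5 times, and that of Chrd turned to 0.03. KO embryo KOAC8-6, with Id2 at 0.26 and Bmp2 at -0.43, had the same signs for both, and KO embryo KOAC10-5 was nearer to the WT mean, with Id2 at 0.05 and Bmp2 at -0.10. WT embryo KOAC10-2, with Bmp2 at -0.32 and Bmp5 at -0.29, stood nearest to the KO embryos for these ligands.

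**Figure D2:**
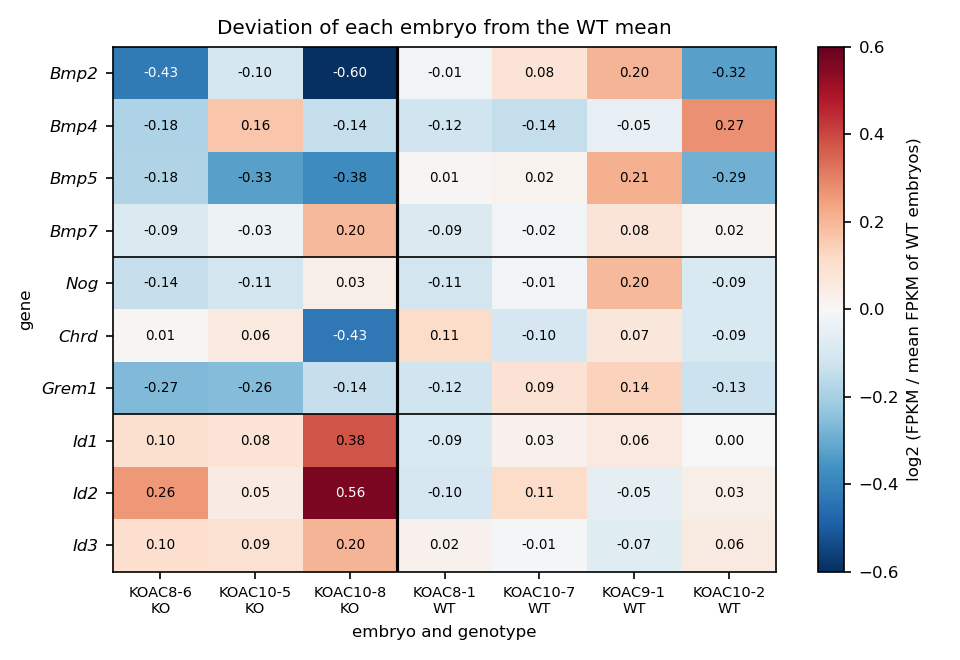
Deviation of each embryo (columns, KO left of the line, WT right) from the WT mean as log2(FPKM / mean FPKM of WT embryos), for the ligands, the antagonists and the Id genes (rows). The Id rows are above 0 in all KO embryos and strongest in KOAC10-8 (0.56 for Id2), where Bmp2 (-0.60), Chrd (-0.43) and Bmp5 (-0.38) are lowest.

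Correlations across the 7 embryos, which differ in genotype, tissue content and depth, are given as a description of log2(FPKM + 1) values. The Id genes ran together, with Pearson's r of 0.92 between Id1 and Id2, 0.83 between Id2 and Id3 and 0.73 between Id1 and Id3 over 7 embryos. Bmp2 and Bmp5 ran together as well (r = 0.84), and both ran against Id3 (r = -0.92 and r = -0.90). Chrd ran against Id2 (r = -0.88) and Id1 (r = -0.84), while Bmp4 was nearly unrelated to Bmp2 (r = 0.00) and to Id3 (r = -0.05). KO embryo KOAC10-8 had the lowest Chrd, at 4.09 FPKM against 5.13 to 5.95 FPKM in the other embryos. It also had the lowest Bmp2 and Bmp5 and the highest Id1, Id2 and Id3. The correlations of Chrd and of the Id genes therefore lean on this 1 embryo, and r without it was not computed. Nog and Grem1 had r = 0.80.

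The genes most like each member were sought among the 11506 genes averaging 5 FPKM or more, by the same correlation over 7 embryos. For Id1, Ift74 (r = 0.99), a component of intraflagellar transport, was among them. For Id2 they were Nono (r = 0.99), a nuclear RNA-binding protein, and Hsd11b2 (r = 0.99), which inactivates glucocorticoids. For Id3 they were Gldc (r = 0.99), of the mitochondrial glycine cleavage system, and Bcar3 (r = 0.99), an adaptor of cell adhesion signalling. For Bmp2 they were Fkbp7 (r = 0.99), an endoplasmic reticulum prolyl isomerase, and Nid2 (r = 0.99), a basement membrane protein. For Bmp4, Snx32 (r = 0.96), a sorting nexin, was among them. Those of Bmp5 were Apbb2 and Fbxl7, those of Bmp7 Smarce1 and Sugp1, those of Nog Capzb and Ubl7, those of Chrd Prkacb and Paip2b, and those of Grem1 Camk2g and Palmd, with r from 0.97 to 0.98. With 7 embryos and this many genes, values as high can be found for nearly any pattern.

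Promoter windows, 250 bases before to 50 bases after a transcript start of RefSeq on GRCm38.p6, were read for 6 of the 10 genes, Bmp4, Bmp5, Chrd, Grem1, Id2 and Id3. The letters GGCGCC, a GC-rich element to which BMP Smads bind and which reads the same on both strands, were found in 3 of them (Chrd, Grem1 and Id2), against 11.9% of all 32851 windows of 300 bases. The Id2 match lies in a window inside the gene's span. The element GTCTAGAC, also the same on both strands, was found in 0 of the 6 and in 0.213% of all windows. Over the members and the other pathway genes described below, 73 in all, 47 had a window, of which 12 held GGCGCC and 1, that of Smad6, held GTCTAGAC. The other genes with GGCGCC were Id4, Nbl1, Bmpr1a, Bmpr2, Rgmb, Smad5, Smad9, Smurf2 and Ski. The stretches upstream of Chrd, Grem1 and the 4th Id gene, Id4, are shown, Chrd and Grem1 as the members whose match lies upstream of the gene and Id4 for comparison within the Id family, 5′ to 3′ on the gene's strand, with the element in capitals. The Chrd stretch is chr16:20732877-20733126 on the plus strand, the Grem1 stretch chr2:113758649-113758898 on the minus strand and the Id4 stretch chr13:48260866-48261115 on the plus strand.
Chrd: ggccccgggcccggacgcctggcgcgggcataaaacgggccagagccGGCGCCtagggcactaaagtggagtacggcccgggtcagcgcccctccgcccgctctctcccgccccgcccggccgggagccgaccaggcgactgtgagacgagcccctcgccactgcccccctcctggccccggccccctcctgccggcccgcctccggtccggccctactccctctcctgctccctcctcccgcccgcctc
Grem1: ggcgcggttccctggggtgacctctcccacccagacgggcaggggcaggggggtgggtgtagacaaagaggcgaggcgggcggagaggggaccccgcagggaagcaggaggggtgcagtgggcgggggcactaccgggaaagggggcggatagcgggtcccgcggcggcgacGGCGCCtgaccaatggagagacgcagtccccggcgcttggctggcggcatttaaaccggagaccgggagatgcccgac
Id4: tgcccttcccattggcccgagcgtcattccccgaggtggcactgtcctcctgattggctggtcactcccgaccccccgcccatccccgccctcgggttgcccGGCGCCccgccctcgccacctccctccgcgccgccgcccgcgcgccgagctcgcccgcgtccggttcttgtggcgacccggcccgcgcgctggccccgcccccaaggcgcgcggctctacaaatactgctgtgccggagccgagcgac
Grem1 was lower in every KO embryo, Chrd overlapped between genotypes, and Id4 was at 25.5 ± 3.16 FPKM in KO (SD, n = 3) and 23.9 ± 2.65 FPKM in WT embryos (SD, n = 4). The match of letters is a description and was not tested against binding.

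Beyond the 10 genes, 63 other genes of the pathway were listed and 53 averaged 1 FPKM or more. None had an adjusted p under 0.05 in limma. Of the 53, 26 averaged higher in KO embryos and 27 lower, and the median log2 change was -0.00, beside 0.01 over all genes. In all, 7 reached an unadjusted p under 0.05, with 4 higher (Acvrl1, Acvr2b, Smad7 and Dlx3) and 3 lower (Fstl1, Bmp1 and Hjv), beside 11.5% of all genes tested (5.27% higher and 6.19% lower). The genotypes did not overlap for 5 genes higher and 6 genes lower in KO embryos, 11 of the 53, beside 11.6% of all genes tested (5.61% higher and 5.98% lower).

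The other ligands tested were 4, Bmp6, Gdf5, Gdf6 and Gdf7, and all had negative log2 changes, with a median of -0.14 (under quantile normalization 1 of the 4 was positive, and with the ligands under 1 FPKM included 2 of 9 were). Bmp6, an iron-regulating ligand and the most abundant of them, was at 1.87, 2.10 and 1.96 FPKM in KO embryos and at 2.40, 2.12, 2.37 and 2.70 FPKM in WT embryos. The genotypes did not overlap, by 2.10 against 2.12 FPKM, and the log2 change was -0.19 (SE 0.08, adjusted p = 0.455 in limma). Bmp3, Bmp8a, Bmp8b, Bmp10 and Gdf2 averaged under 1 FPKM and were not tested, like the antagonists and modulators Chrdl2, Cer1, Sost, Vwc2 and Tll2. Bmp10 was higher in KO embryos without overlap, at 1.07, 0.996 and 1.03 FPKM, against 0.935, 0.694, 0.704 and 0.934 FPKM in WT embryos. With overlap, Bmp8b averaged higher in KO embryos, and Bmp3, Bmp8a and Gdf2 averaged lower.

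Of 13 other secreted antagonists and modulators tested, 10 averaged lower in KO embryos and 3 higher, and the median log2 change was -0.10. With the 5 of this list under 1 FPKM included, 14 of 18 averaged lower and 4 higher. Of these 5, Sost, an antagonist known from bone, lay the other way, at 1.14, 1.12 and 1.47 FPKM in KO embryos and at 0.736, 0.755, 0.419 and 0.602 FPKM in WT embryos without overlap, while Chrdl2 (0.328 ± 0.0694 FPKM in KO, SD, n = 3, and 0.623 ± 0.123 FPKM in WT, SD, n = 4) was lower without overlap. Fstl1, a secreted follistatin-like protein that can bind BMP and the most abundant of them, was at 127, 145 and 114 FPKM in KO embryos and at 145, 166, 163 and 152 FPKM in WT embryos. KO embryo KOAC10-5 reached the lowest WT embryo, KOAC8-1, and the log2 change was -0.29 (SE 0.09, adjusted p = 0.354 in limma). Bmp1, a metalloprotease that cleaves Chordin and procollagen and is not a BMP ligand, was at 45.4, 54.8 and 48.9 FPKM in KO embryos and at 55.1, 65.5, 62.8 and 58.7 FPKM in WT embryos. The genotypes did not overlap, and the log2 change was -0.28 (SE 0.08, adjusted p = 0.345 in limma). Crim1, a transmembrane protein that binds BMP, did not overlap either but hardly differed, at 6.47 ± 0.0127 FPKM in KO (SD, n = 3) and 6.67 ± 0.171 FPKM in WT embryos (SD, n = 4).

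The 11 receptors and co-receptors were split, 5 averaging higher in KO embryos and 6 lower. Acvrl1, a type I receptor of endothelium, was at 6.19, 8.49 and 6.34 FPKM in KO embryos and at 5.15, 4.28, 5.04 and 5.65 FPKM in WT embryos, a log2 change of 0.40 (SE 0.13, adjusted p = 0.348 in limma). Acvr2b, a type II receptor shared with activin, was at 27.0, 22.4 and 24.3 FPKM in KO embryos and at 22.0, 19.1, 18.2 and 19.4 FPKM in WT embryos, a log2 change of 0.31 (SE 0.09, adjusted p = 0.317 in limma). Both lay higher in all KO embryos than in any WT embryo. Hjv, a BMP co-receptor of muscle and liver that acts in iron balance, was at 1.75, 1.97 and 1.18 FPKM in KO embryos and at 2.86, 2.81, 3.48 and 2.18 FPKM in WT embryos, below every WT embryo, with a log2 change of -0.54 (SE 0.15, adjusted p = 0.317 in limma). Bmpr1a, a main type I BMP receptor, was at 32.4 ± 0.323 FPKM in KO (SD, n = 3) and 34.6 ± 1.29 FPKM in WT embryos (SD, n = 4) without overlap, and Rgmb, the most abundant of the list, was at 35.04 ± 0.854 FPKM in KO (SD, n = 3) and 36.1 ± 4.58 FPKM in WT embryos (SD, n = 4).

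Among 11 Smads and intracellular regulators, 6 averaged higher in KO embryos and 5 lower, and the median log2 change was 0.02. Smad7, an inhibitory Smad that is itself induced by the pathway, was at 11.9, 10.4 and 9.48 FPKM in KO embryos and at 9.22, 9.01, 8.64 and 8.96 FPKM in WT embryos. Every KO embryo was above every WT embryo, with a log2 change of 0.21 (SE 0.08, adjusted p = 0.397 in limma). Bambi, a pseudoreceptor also known as a BMP-induced inhibitor, was at 6.47, 5.81 and 7.05 FPKM in KO embryos and at 5.79, 5.74, 5.51 and 5.17 FPKM in WT embryos, apart by 5.81 against 5.79 FPKM. Its log2 change was 0.18 (SE 0.08, adjusted p = 0.440 in limma). Ski, a co-repressor of Smads, was at 29.4 ± 0.430 FPKM in KO (SD, n = 3) and 31.0 ± 1.13 FPKM in WT embryos (SD, n = 4) without overlap, and Smad4, the shared partner, was at 40.2 ± 2.28 FPKM in KO (SD, n = 3) and 39.6 ± 3.50 FPKM in WT embryos (SD, n = 4).

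Of the 11 other BMP-induced genes, 10 averaged higher in KO embryos, where 53.1% of all genes tested did, and the median log2 change was 0.12. Dlx3, a homeobox gene of the ectoderm, was at 3.00, 3.52 and 4.15 FPKM in KO embryos and at 2.89, 2.76, 2.83 and 2.73 FPKM in WT embryos, without overlap, with a log2 change of 0.25 (SE 0.10, adjusted p = 0.403 in limma). Msx1, a homeobox gene of the dorsal neural tube and limb and the most abundant of the list, was at 51.6, 47.3 and 57.5 FPKM in KO embryos and at 44.4, 44.1, 39.0 and 51.1 FPKM in WT embryos. WT embryo KOAC10-2 lay inside the KO range, and the log2 change was 0.22 (SE 0.10, adjusted p = 0.466 in limma). The exception was Runx2, the regulator of bone formation, at 3.51 ± 0.938 FPKM in KO (SD, n = 3) and 4.33 ± 0.448 FPKM in WT embryos (SD, n = 4). Of the partners that Id proteins bind, Tcf3, the most abundant, was at 158 ± 11.98 FPKM in KO (SD, n = 3) and 147 ± 6.97 FPKM in WT embryos (SD, n = 4), a log2 change of 0.11 (SE 0.07, adjusted p = 0.553 in limma), and 2 of 3 such genes were higher.

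**Figure D3:**
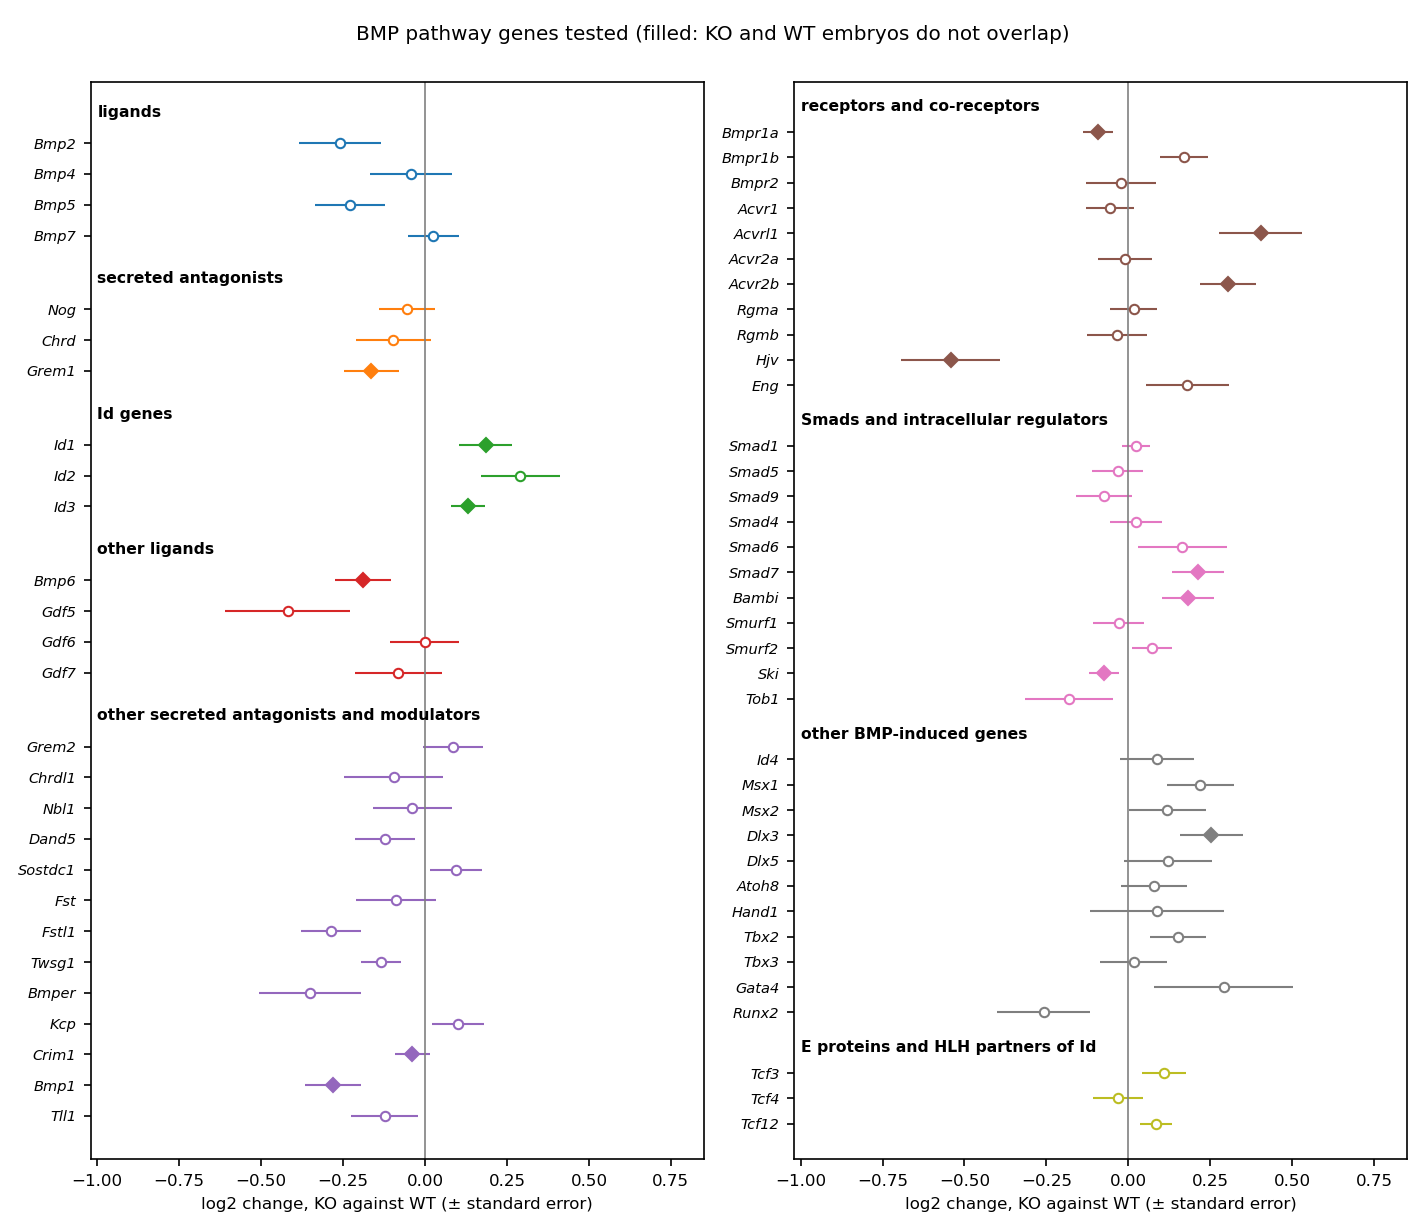
Log2 change from WT to KO embryos ± SE (horizontal axis) for the 63 pathway genes tested, 10 members and 53 others, by role. Filled diamonds mark genes whose KO and WT embryos do not overlap, and most points lie within 0.25 of 0, with Acvrl1 (0.40) and Hjv (-0.54) among the farthest.

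Markers of the tissues in which these genes are active were read in the same embryos, and their part in the values above was not tested. An unadjusted p under 0.05 went with higher KO values in 5.27% and with lower ones in 6.19% of all genes tested, and the genotypes did not overlap, with KO embryos higher, in 5.61% and, with KO embryos lower, in 5.98%. The 7 skeletal muscle markers were all lower in KO embryos without overlap and with unadjusted p under 0.05, and summed to 271, 283 and 225 FPKM in KO embryos and 418, 403, 525 and 386 FPKM in WT embryos, with Actc1 the most abundant. Of the pathway genes tested, Hjv, Grem1, Bmp6, Bmp1, Crim1, Bmpr1a and Ski were also lower in KO embryos without overlap. Higher without overlap were 2 of the 10 members and 5 of the 53 other pathway genes. Among 7 markers of neural progenitors, 5 reached an unadjusted p under 0.05 with higher KO values, and the list summed to 574, 652 and 643 FPKM in KO embryos and 527, 556, 571 and 619 FPKM in WT embryos, mostly Fabp7, which was itself at 361 ± 22.4 FPKM in KO (SD, n = 3) and 368 ± 28.9 FPKM in WT embryos (SD, n = 4). Of 6 endothelial markers, 5 were higher, 3 of them without overlap and 2 with an unadjusted p under 0.05, and the list summed to 90.0, 88.1 and 95.1 FPKM in KO embryos and 83.0, 83.7, 88.0 and 84.5 FPKM in WT embryos, with Cdh5 the most abundant. KO embryo KOAC10-8, which had the largest sum of FPKM over all genes, was the highest embryo for the endothelial list and also for those of roof plate, floor plate and notochord, apical ectodermal ridge, surface ectoderm and heart. The list sums were not rescaled to a common sum of FPKM, so these ranks hold only for the values as deposited.

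Roof plate markers, of which 3 of 6 were higher, summed to 32.0 ± 2.95 FPKM in KO (SD, n = 3) and 31.8 ± 1.12 FPKM in WT embryos (SD, n = 4). Rspo1 was the largest part of the sum, at 13.5 ± 1.21 FPKM in KO (SD, n = 3) and 14.3 ± 0.627 FPKM in WT embryos (SD, n = 4). Higher without overlap and with an unadjusted p under 0.05 were 2 of the 6, Wnt1 (1.70 ± 0.296 FPKM in KO, SD, n = 3, and 1.06 ± 0.171 FPKM in WT, SD, n = 4) and Wnt3a (2.15 ± 0.131 FPKM and 1.58 ± 0.0577 FPKM). Floor plate and notochord markers, of which 3 of 5 were higher, 2 with an unadjusted p under 0.05 and 1 without overlap, summed to 37.9 ± 1.95 FPKM in KO (SD, n = 3) and 35.3 ± 3.65 FPKM in WT embryos (SD, n = 4). Limb mesenchyme markers, with 5 of 7 higher, 1 with an unadjusted p under 0.05 and 2 without overlap, summed to 156 ± 3.83 FPKM in KO (SD, n = 3) and 145 ± 12.7 FPKM in WT embryos (SD, n = 4). WT embryo KOAC10-2, low for Tbx5, had the lowest limb sum, 129 FPKM against 141 to 160 FPKM in the other WT embryos. Its Hoxd13 was at 3.76 FPKM, against 8.00 to 11.2 FPKM in the other WT embryos and a KO mean of 9.48 FPKM. Markers of the apical ectodermal ridge, with 3 of 4 tested higher, summed to 60.2 ± 1.70 FPKM in KO (SD, n = 3) and 55.4 ± 2.26 FPKM in WT embryos (SD, n = 4). Of these 4, 2 were higher without overlap and with an unadjusted p under 0.05, the growth factor gene Fgf8 (5.83 ± 1.68 FPKM in KO, SD, n = 3, and 3.12 ± 0.705 FPKM in WT, SD, n = 4) and Sp8. Surface ectoderm markers, all 7 higher, 1 of them without overlap and with an unadjusted p under 0.05, summed to 61.0 ± 8.34 FPKM in KO (SD, n = 3) and 55.2 ± 3.10 FPKM in WT embryos (SD, n = 4). Heart markers, all 6 higher (5 under quantile normalization) and 3 with an unadjusted p under 0.05, summed to 596 ± 73.2 FPKM in KO (SD, n = 3) and 510 ± 39.6 FPKM in WT embryos (SD, n = 4), while erythroid markers, 5 of 6 lower and 2 of them without overlap and with an unadjusted p under 0.05, summed to 16678 ± 2407 FPKM and 23214 ± 2123 FPKM. Neuron markers, 4 of 6 lower and none with an unadjusted p under 0.05, summed to 654 ± 72.0 FPKM in KO (SD, n = 3) and 694 ± 58.5 FPKM in WT embryos (SD, n = 4). The most abundant markers of these lists were Rspo1 (roof plate), Ntn1 (floor plate and notochord), Prrx1 (limb mesenchyme), Wnt5a (apical ridge), Krt8 (surface ectoderm), Myl2 (heart), Hbb-y (erythroid) and Tubb3 (neurons). No marker gene of these lists was listed at 0 in any embryo.

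**Figure D4:**
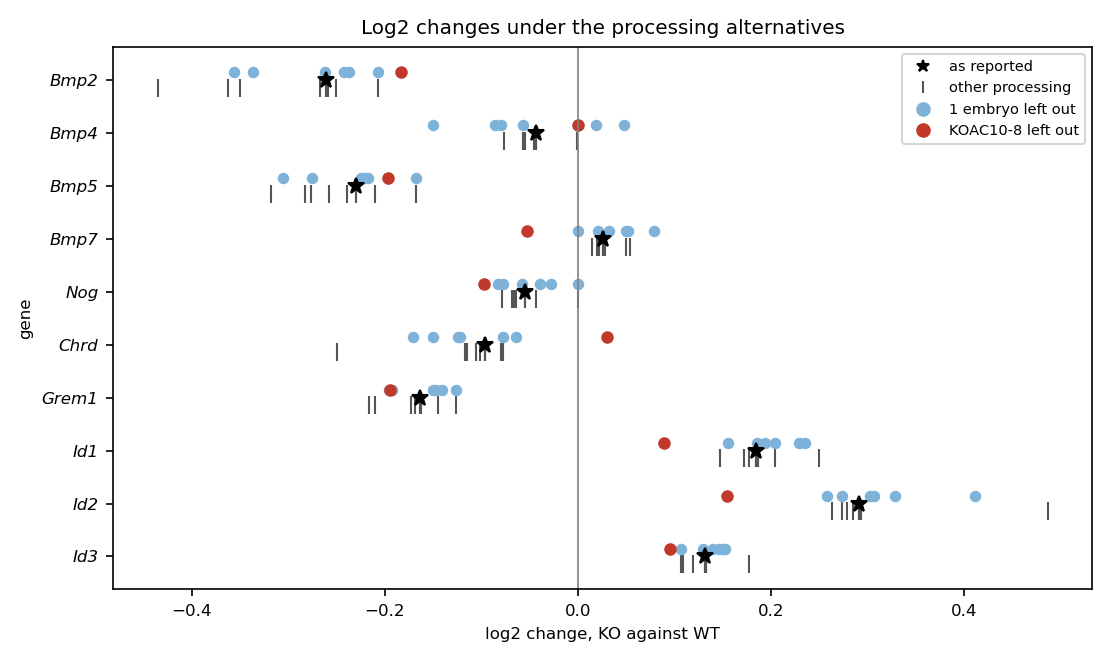
Log2 change from WT to KO embryos (horizontal axis) for the 10 genes as reported (star), under other processing (ticks) and with 1 embryo left out (circles, red for KO embryo KOAC10-8). The Id genes stay above 0 and Bmp2, Bmp5 and Grem1 below 0 in every setting drawn, while Bmp4, Bmp7, Nog and Chrd cross 0 in at least 1.

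The order of the differences held for some genes and not for others when the values were processed differently. The log2 change of Id2 ran from 0.15 without KO embryo KOAC10-8 to 0.49 without the 3 embryos nearly lacking liver transcripts, that of Id1 from 0.09 to 0.25 and that of Id3 from 0.10 to 0.18. Bmp2 ran from -0.44 to -0.18, Bmp5 from -0.32 to -0.17 and Grem1 from -0.22 to -0.13. In none of these settings did 1 of the 10 genes reach an adjusted p under 0.05 in limma, the lowest being 0.187 for Id2 without KO embryo KOAC10-5.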

How the data were processed

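RNA-seq of whole embryos had been made with the TruSeq RNA v2 kit from total RNA. The authors deposited 1 FPKM value per gene and embryo, and 0 such columns were left unmapped. Their processing notes name Salmon, DESeq2, MultiQC and GRCm38, with settings not given in the sources used here. Of the authors' own comparison columns (log2 fold changes, their errors, p-values and adjusted p-values), none was used. The deposited mean signal per gene, the authors' normalized count over all embryos, gave the counting error.

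Genotypes were compared by limma 3.58.1 (R 4.3.3, lmFit and trended eBayes) on log2(FPKM + 1), which understates changes of low genes, for genes averaging at least 1 FPKM, with Benjamini-Hochberg adjustment and a threshold of 0.05. The steps were tested on simulated data. Members and lists were chosen with earlier results of these data known. Named were all members, the most abundant gene of each other list, and genes with an unadjusted p under 0.05 or without overlap (at most 12). Id4, Runx2, Msx2, Atoh8, Hand1, Gdf5, Gdf6, Gdf7, Bmp10, Sost, Chrdl2, Tbx5, Hoxd13, Wnt1, Wnt3a, Fgf8 and Sp8 were named after their values were seen. Nothing says that embryos came from separate litters, so p-values measure the spread between these embryos. Positions and shared 50-base stretches came from GENCODE release M21 on GRCm38. Alternatives were other pseudocounts, filters and scalings, the KOAC number as a block, Afp as a covariate, and embryos left out. Of the genes most like each member, 2 are not reported here.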

Additional observations from a re-analysis of the deposited data

Results flagged for a closer look

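Among the 4 WT embryos, 1 value stood far from the other 3 for 9 of 149 genes examined, where chance flags about 1 in 20, or 7.45, and 0 of these were among the 10 members. The figure given for each is the gap to the nearest embryo as a share of the whole WT range. Among pathway genes, WT embryo KOAC8-1 was the highest for Gdf7 (0.838), Bmpr1b (0.953) and Smad6 (0.844). Embryo KOAC10-2 was the highest for Rgmb (0.931), at 43.0 FPKM against 33.4 to 34.1 FPKM in the others, and the lowest for Smad9 (0.863). Among markers, KOAC10-2 was the highest for the roof plate gene Wnt1 (0.949) and the neural progenitor gene Sox3 (0.933), and the lowest for the limb genes Tbx5 (0.868) and Sp6 (0.900).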

How the results depend on the processing

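Under 17 alternatives, the 10 genes with an adjusted p under 0.05 in limma numbered 0 each time. The signs of Id1, Id2, Id3, Bmp2, Bmp5 and Grem1 held in every alternative in which they were tested (a minimum of 5 FPKM left Bmp2, Bmp5, Grem1 and Nog untested). Over all genes, those called went from 6 to 10 with Afp as a covariate, to 17 without the 3 embryos nearly lacking liver transcripts, and to 7 to 12 with 1 embryo left out (12 without KOAC8-1), with 4 at a minimum of 5 FPKM. Members with an unadjusted p under 0.05, of which there were 2 beside 11.5% of all genes, went to 1 with quantile normalization (11.7% of all genes) and with Afp (11.7%), and to 0 with the KOAC number as a replicate block (8.69%). They were Id2 and Id3 as reported, Id1 and Id2 after rescaling to a common sum, Id2 and Bmp2 (lower in KO) without the 3 liver-poor embryos, Id2 with quantile normalization and Bmp5 (lower in KO) with Afp. With 1 embryo left out they numbered 0 to 4, with 0 without KOAC8-1 (10.49%), KOAC9-1 (7.85%) or KOAC10-8 (7.80%), 1 without KOAC8-6 (8.75%) or KOAC10-7 (9.495%), 3 without KOAC10-2 (9.96%) and 4 without KOAC10-5 (16.4%). Members without overlap went from 3 to 2 with quantile normalization (Grem1 overlapped, and 11.8% of all genes do not), to 8 without the 3 liver-poor embryos, where 46.5% of all genes do not overlap, and to 3 to 6 with 1 embryo left out (6 without KOAC10-5, where 28.4% of all genes do not overlap, and 5 without KOAC10-2, where 16.6% do not). Signs turned for Bmp4 (0.019 without KOAC8-6, 0.048 without KOAC10-2, range -0.15 to 0.048), Bmp7 (-6.67e-05 without KOAC8-1, -0.053 without KOAC10-8, range -0.053 to 0.078), Chrd (0.031 without KOAC10-8, range -0.25, without the 3 liver-poor embryos, to 0.031, and -0.17 to 0.031 with 1 embryo left out) and Nog (0.000257 with the replicate block and without KOAC9-1, range -0.097 to 0.000257). The cause of these moves was not tested. The labels do not say what the KOAC number marks, so the block may pair embryos that share only a number. Depth limits the low genes, with counting errors of 5.18% for Nog and 4.37% for Bmp2.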
